A study of Mus musculus with 2 samples.

Results

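CG methylation was examined at 35 imprinted genes of the mouse in primary osteoblasts, the bone-forming cells, from WT and TCKO mice. The members were taken as a list of gene symbols, and all 35 were found among 35312 protein-coding and lncRNA genes of GENCODE M21. Each gene was taken with 5 kb on either side. Within these windows, 200 bp bins with 8 or more covered CG cytosines (counted per strand) and a pooled WT level of 35 to 65% were called intermediate bins, because a region methylated on 1 parental allele is read at such a level. The WT level therefore chose the bins and is given as a description, whereas the TCKO level was not used in the choice. The windows held 7755 bins with a covered cytosine, of which 1470 had 8 or more in WT and 332 were intermediate. Of these 332, 270 were also covered at 8 or more cytosines in TCKO and were compared, while 62 were not. The whole genome held 176022 intermediate bins.

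Both libraries came from 3-day-old mice of strain C57BL/6, and calvarial osteoblasts were cultured for 3 days before DNA extraction. TCKO cells came from mice that carried Prx1-Cre and were homozygous for floxed Tet1 (Tet1fl/fl), Tet2 (Tet2fl/fl) and Tet3 (Tet3fl/fl), and so lack all 3 TET dioxygenases where the Cre was active, and WT cells from wild-type mice. Prx1-Cre is driven in the mesenchyme of the limb bud and part of the skull, so cells of other origin in a culture would keep their Tet genes. There was 1 WGBS library per genotype. All tests below therefore compare 2 libraries and not the genotypes, no difference has a replicate check, and the p-values and intervals reflect counting error alone.

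Genomic imprinting is the expression of a gene from only the maternal or only the paternal chromosome. It is set by control regions that are methylated in 1 germline and not in the other, and that keep this difference in the cells of the body while the rest of the genome is reprogrammed. Most control regions are methylated in the egg and lie at a promoter, often that of a long non-coding RNA, whereas a few, such as those of H19 and Igf2, of Dlk1 and Meg3 and of Rasgrf1, are methylated in sperm and lie between genes. TET enzymes oxidise 5mC to 5hmC as a step of demethylation and are known to take part in erasing imprints in the germline. ZFP57, a zinc finger protein, binds the methylated string TGCCGC and protects the methylated allele, and CTCF binds the unmethylated control region upstream of H19.

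The sequences below, read from the GRCm38 reference, show the ZFP57 string, in capitals, where it lay in intermediate runs of several members. Each is 30 bases, written 5′ to 3′ on the strand named, and the capitals mark 1 copy of the string. Runs are described below.
Mest b, chr6:30738411-30738440, plus strand: ttatccaaaggtTGCCGCccagcccaaact
Snrpn, chr7:60004167-60004196, minus strand: ctggagtgctgtTGCCGCggcctgcgggct
Plagl1, chr10:13091240-13091269, minus strand: ccgccacttaagTGCCGCatagcacacggg
Zrsr1, chr11:22973270-22973299, minus strand: ctccttcttcatTGCCGCcttgtattgttt
Peg13, chr15:72809695-72809724, minus strand: gacctgcgacacTGCCGCggagccgggagt
Airn, chr17:12742367-12742396, plus strand: cgtgagccccggTGCCGCgctgcccaaagg
The string was searched on both strands. It was present in 23 of the 95 bins of the member runs (24.2%), in 7.59% of the 237 other intermediate bins of the member windows, and in 4.32% of the 172186 intermediate autosomal bins. Its share was 5.68% of all autosomal bins with 8 or more covered cytosines. Bins of the member runs held a median of 7 CG sites and the other sets 5, and the part of this difference in the shares was not tested. By run, Mest b held 12 copies, Snrpn 7, and Peg13 and Airn 5 each, and 11 of the 24 runs held none.

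The 14-letter string of the CTCF sites of the H19 control region was searched on both strands and found 3 times within 5 kb upstream of H19, on the minus strand each time, at 2166, 2621 and 3891 bp from the start of the gene. These sequences are shown with the string in capitals, since this is the stretch whose methylation state is known to set CTCF binding.
H19, 2166 bp upstream, chr7:142580301-142580330: agacgatgCCGCGTGGTGGCAGtacaatac
H19, 2621 bp upstream, chr7:142580756-142580785: ggatgctaCCGCGCGGTGGCAGcatactcc
H19, 3891 bp upstream, chr7:142582026-142582055: gggagttgCCGCGTGGTGGCAGcaaaatcg
In the 200 bp around the nearest string, the level was 98.1% of 53 calls in WT and 58.0% of 50 calls in TCKO. Around the middle string it was 41.9% of 31 calls in WT, and TCKO had only 2 calls, 1 of them methylated. Around the farthest it was 100% of 17 calls in WT and 70.4% of 27 in TCKO. The covered cytosines in the strings themselves were methylated in 9 of 9, 8 of 18 and 4 of 4 calls in WT, and in TCKO in 2 of 4 calls at the nearest and 6 of 8 at the farthest, with no call at the middle one. These windows rest on 2 to 53 calls, so single reads weigh heavily in them.

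The WT library held 261127589 calls and the TCKO library 223645082, a median of 4 per covered CG cytosine in each. Over all CG cytosines the level was 70.2% in WT and 76.3% in TCKO, and over the member windows it was 67.9% of 232268 calls and 75.4% of 197349 calls. The targeted genes were read by depth: within Tet1, Tet2 and Tet3 a stretch held 755, 122 and 133 calls in WT and 70, 13 and 9 in TCKO. Each stretch was chosen for its low TCKO depth, so these counts are a description and not a check of the deletion. How often other genes hold such a stretch was not examined. Over the whole genes the calls were 14737, 9452 and 10356 in WT and 11658, 7407 and 8480 in TCKO. The median promoter level of 6 osteoblast genes was 17.4% in WT and 30.4% in TCKO, with 2 of the 6 called higher, and that of the 2 blood genes was 74.6% and 82.1%, the 2 endothelial genes 71.7% and 86.4%, the 2 skeletal muscle genes 30.7% and 25.04%, and the 2 epithelial genes 15.04% and 20.8%. The part of the cell mixture in the results below was not tested, and the files carry no allele of origin, so a level near 50% cannot be told apart from a mixture of methylated and unmethylated cells.

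The first question was whether the intermediate level of the imprinted windows was kept in TCKO. Of the 270 compared bins, 101 (37.4%, 95% Wilson interval 31.9 to 43.3) were at 35 to 65% in TCKO too, 148 (54.8%) were above that range and 21 (7.78%) below it. Across all 134863 autosomal intermediate bins treated in the same way, 26.8% stayed within the range, 71.0% were above and 2.25% below. The median TCKO minus WT difference was 14.3 percentage points for the member bins, with a quartile range of 0.819 to 26.8, and 19.1 points for the autosomal bins. By the 2-sided Fisher exact test on the pooled calls (Benjamini-Hochberg adjusted p below 0.05 over all 933442 testable bins and a difference of more than 20 points), 55 of the 270 member bins (20.4%) were called higher and 4 (1.48%) lower in TCKO. The corresponding background among autosomal intermediate bins was 24.4% higher and 0.178% lower, and among all testable bins it was 7.7% and 0.199%. Thus the share called higher in the member bins lay near the background of intermediate bins, and the 4 bins called lower, few as they are, made up a larger share than in the background.

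Those 4 bins lay at Mest, Peg3, Kcnq1ot1 and Gnas. The bin in the Mest run (chr6:30737401-30737600) read 60% of 25 calls in WT and 11.1% of 18 in TCKO. The bin near Peg3 (chr7:6727401-6727600) read 58.5% of 41 and 20% of 25. The bin in the Kcnq1ot1 run (chr7:143296401-143296600) read 62.0% of 108 and 31.6% of 57. In Gnas (chr2:174328801-174329000) the values were 56.9% of 376 and 36.6% of 232. The bins with the largest rises were a bin of the Kcnq1 and Kcnq1ot1 windows (chr7:143273801-143274000) with 40% of 30 calls in WT and 100% of 8 in TCKO, a Gnas bin (chr2:174300201-174300400) with 35% of 20 and 88.5% of 26, and an Airn bin (chr17:12844001-12844200) with 36.5% of 63 and 88.0% of 25. These 3 lay outside any run, whereas 3 of the 4 bins called lower lay within one. At the edges of the range, the lowest WT levels chosen were 35 and 35.1% and the nearest not chosen 34.9 and 34.7%, and the highest chosen were both 64.7% and the nearest not chosen both 65.7%.

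Since known control regions span more than a single bin, intermediate bins were joined into runs of at least 3 with a gap of at most 1 bin. This gave 24 runs in the member windows, of 2704 in the genome and 2683 on the autosomes. Bins in and outside these runs are given apart, and the difference between them was not tested. Of the 80 compared bins in runs, 43 (53.8%) were still at 35 to 65% in TCKO, 27 were above and 10 below, with a median difference of 6.55 points. Of the 190 outside runs, 58 (30.5%) were within the range, 121 above and 11 below, with a median difference of 17.3 points. Bins in autosomal runs stayed within the range in 33.3%. In the member runs 7 bins were called higher and 3 lower, and outside them 48 higher and 1 lower, beside 22.7% higher and 0.579% lower of bins in autosomal runs and 24.5% and 0.156% of those outside.

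**Figure D1:**
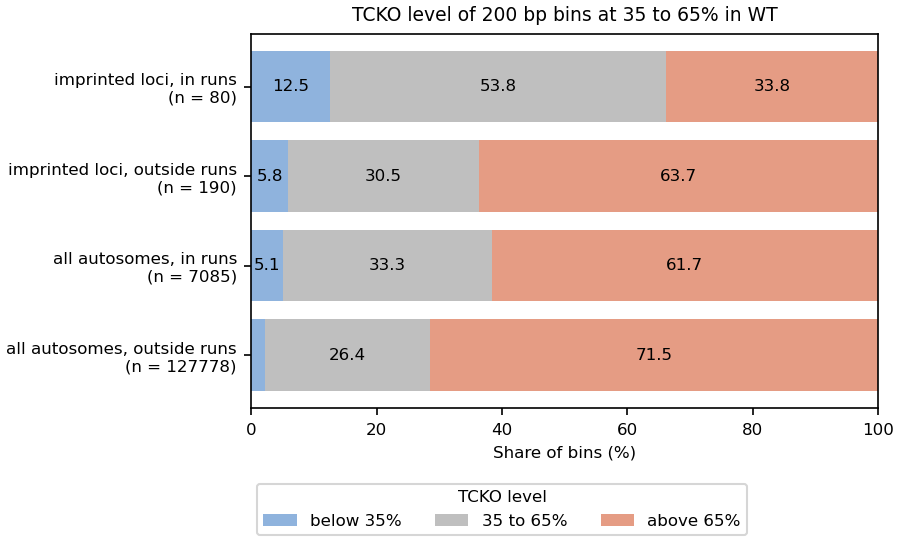
Share of 200 bp bins that were at 35 to 65% in WT by their level in TCKO (below 35%, 35 to 65% or above 65%), for bins of the imprinted loci in and outside runs and for autosomal bins in and outside runs. The imprinted runs had the largest grey share of the 4 sets, 53.8% against 30.5%, 33.3% and 26.4%.

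Single cytosines with 10 or more calls were then read, as a level at one cytosine is not an average over neighbours. In the member runs, 143 of 154 such cytosines (92.9%) were at 20 to 80% in WT and 115 of 121 (95.04%) in TCKO. In the intermediate bins outside runs the share was 81.8% of 286 in WT and 53.4% of 206 in TCKO, where 45.1% were above 80%. The autosomal intermediate bins gave 82.3% and 54.1%. The WT shares follow in part from the choice of the bins. Gnas g, Usp29 and Zrsr1 supplied 95 of the 154 cytosines in WT and 75 of the 121 in TCKO, so the values for the member runs speak mainly for these 3.

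Of the 24 runs, 14 (58.3%) were at 35 to 65% in TCKO, 9 were above and 1 was below, beside 32.7% within the range for the autosomal runs. The median difference was 6.76 points for the member runs and 16.7 for the autosomal runs. A total of 4 member runs were called higher and 0 lower (adjusted p below 0.05 by the Fisher exact test over all 2704 runs and more than 20 points), where the background was 40.1% higher and 0.703% lower. The share within the range rose with the length of a run both in the members and in the genome: among runs of 4 or more bins it was 9 of 12 against 43.4% of 539, and among those of 6 or more bins 4 of 4 against 25 of 39. The member runs were 600 to 2200 bp long, 13 overlapped an annotated transcript start and 21 lay within 1 kb of one, and their median observed over expected CG ratio was 0.574.

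**Figure D2:**
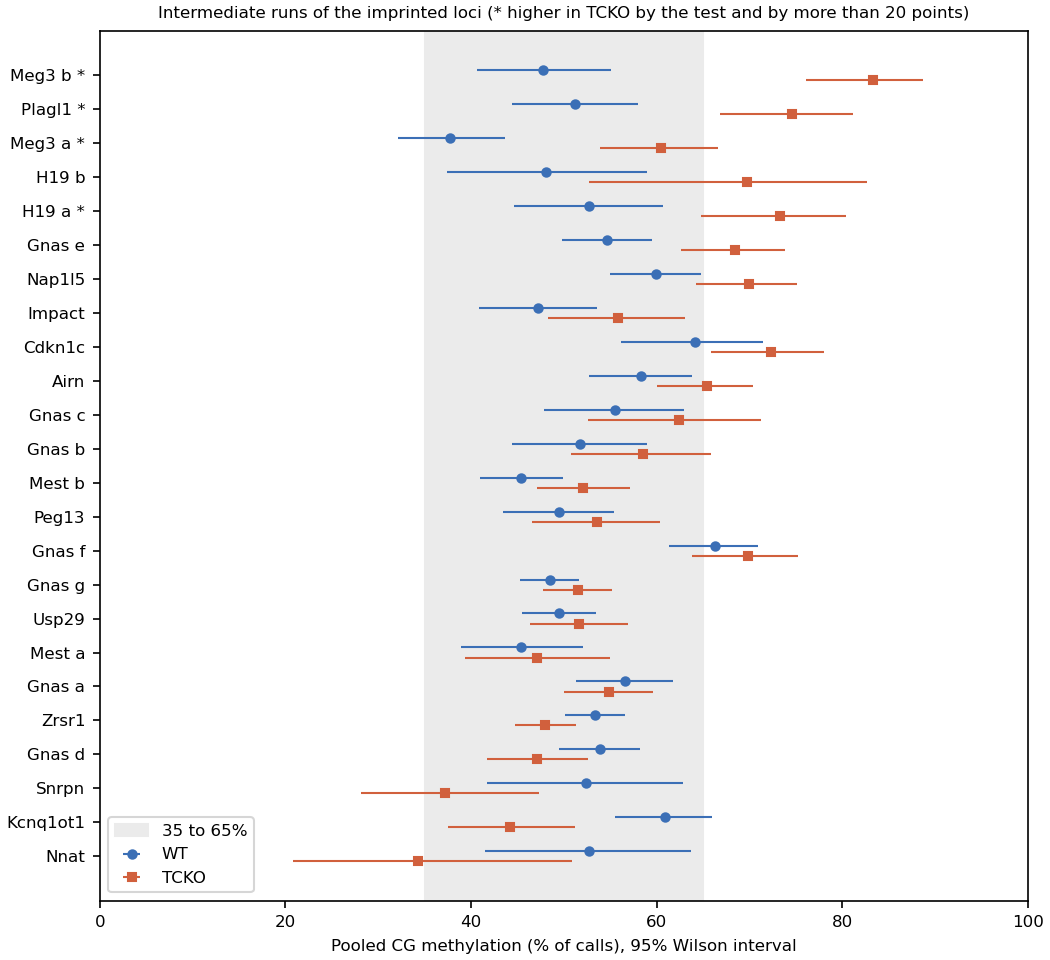
Pooled CG methylation level (percent of calls) of the 24 runs in WT (circles) and TCKO (squares) with 95% Wilson intervals, ordered by the TCKO minus WT difference; the grey band marks 35 to 65% and an asterisk a run called higher. In TCKO 14 runs lay in the band, and the 5 largest rises were at Meg3, H19 and Plagl1.

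Gnas, which encodes the G protein subunit Gs alpha and has several imprinted alternative promoters, held 7 runs. Gnas a (chr2:174283601-174285000), over the start of the Gnas-210 transcript and in part over an exon of the antisense RNA Nespas, lies at a promoter known to be methylated on the paternal allele and read 56.6% of 348 calls in WT and 54.9% of 410 in TCKO. Gnas b and Gnas c, in Nespas, read 51.7% and 55.6% in WT and 58.5% and 62.4% in TCKO. Gnas d, also in Nespas, read 53.9% and 47.1%, and Gnas e, 459 bp from the start of Gnas-201, 54.7% and 68.5%. Gnas e was the only Gnas run with an adjusted p below 0.05 (0.0011, Fisher exact test), at a difference of 13.8 points. The other 6 Gnas runs had intervals of the difference that held 0.

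Near the start of Gnas-202, Gnas f (chr2:174326401-174327800) read 66.3% of 371 and 69.8% of 242, and Gnas g (chr2:174328201-174329200), the most deeply covered run, 48.5% of 949 and 51.5% of 674. The difference at Gnas g was 3.01 points with a 95% interval of -1.92 to 7.92 in pooled calls, and 15.4 points in the mean of single-cytosine levels. Its 2 deepest bins moved in opposite directions, from 47.3 to 65.9% (chr2:174328601-174328800) and from 56.9 to 36.6% (chr2:174328801-174329000). The promoter just downstream, within 500 bp of the start of Gnas-206, was nearly unmethylated, at 0.578% of 173 calls in WT and 0 of 214 in TCKO. The drop from the runs to this promoter was thus present in both libraries.

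Mest, which encodes an alpha/beta hydrolase and is expressed from the paternal allele, held 2 runs. Mest b (chr6:30737201-30739000), over the start of Mest-202, read 45.4% of 476 calls in WT and 52.1% of 378 in TCKO (difference 6.74, interval -0.0068 to 13.4). Mest a, over the start of Mest-207, read 45.4% of 218 and 47.1% of 153. Neither difference passed the test. Within Mest b, however, 2 of the 5 compared bins were below 35% in TCKO.

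Peg3, a zinc finger gene, and Usp29, a deubiquitinase gene, share a promoter region. Their common run (chr7:6730801-6731400) read 49.5% of 592 calls in WT and 51.6% of 335 in TCKO, and all 3 of its bins stayed at 35 to 65%. Zrsr1, a retrogene in an intron of Commd1 related to a splicing factor, had the longest run (chr11:22972001-22974200), at 53.4% of 924 and 48.0% of 888. Its difference of -5.38 points had an adjusted p of 0.0401 (Fisher exact test). Peg13, a non-coding RNA in an intron of Trappc9, read 49.4% of 267 and 53.6% of 196, and all 5 compared bins of its run stayed within the range. In pooled calls these 3 runs differed by at most 5.38 points from their WT level, but with the mean of single-cytosine levels Usp29 differed by 12.3 points, and at Peg13 the plus strand differed by 20.1 points and the minus strand by -11.3.

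Airn, the antisense RNA that silences Igf2r in cis, held a run in the intron of Igf2r (chr17:12742001-12743000) at 58.3% of 300 in WT and 65.4% of 321 in TCKO. Impact, a translational regulator on chromosome 18, read 47.2% of 233 and 55.8% of 172, and its 3 bins stayed within the range. Nap1l5, a nucleosome assembly protein gene in an intron of Herc3, read 59.9% of 382 and 70.0% of 270 (adjusted p = 0.0184, Fisher exact test, difference 10.1 points). These 3 runs were a little higher in TCKO, and none passed 20 points.

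At 3 further maternally methylated loci the TCKO level was the lower. The run at the start of Kcnq1ot1, the antisense RNA that silences genes of its cluster (chr7:143296001-143296600), read 60.9% of 330 in WT and 44.2% of 199 in TCKO, a fall with an adjusted p of 0.000557 (Fisher exact test) and an interval of -25.1 to -7.91 points. It did not pass the 20 points required for a call. Snrpn, which encodes a splicing protein, read 52.4% of 82 and 37.2% of 94 (adjusted p = 0.0748), and Nnat, a proteolipid gene, 52.7% of 74 and 34.3% of 35 (adjusted p = 0.141), both by the Fisher exact test. The last 2 runs had few calls, and their differences did not pass the test.

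Plagl1, a zinc finger transcription factor that acts on other imprinted genes, had mixed values. Its run (chr10:13091201-13091800) read 51.2% of 205 calls in WT and 74.6% of 138 in TCKO and was called higher (adjusted p = 5.46e-05, Fisher exact test). In the 500 bp on either side of the start shared by 13 of its transcripts, just upstream of the run, the level was 72.5% of 167 in WT and 36.7% of 166 in TCKO. The 2 adjoining stretches overlap and moved in opposite directions, so the locus as a whole had no single direction.

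At H19 and Meg3, whose control regions are methylated on the paternal allele, 4 runs were found within 5 kb, and all 4 had a pooled TCKO level over 20 points above WT. H19 a (chr7:142576401-142577200), in the body of the non-coding RNA H19 over Mir675, read 52.7% of 146 in WT and 73.3% of 120 in TCKO and was called higher (adjusted p = 0.00146, Fisher exact test). H19 b (chr7:142580601-142581200), 2458 bp upstream of the nearest H19 start and around the middle CTCF string printed above, read 48.1% of 79 and 69.7% of 33, with an adjusted p of 0.0629 by the same exact test. The interval of its difference ran from 1.40 to 38.4 points. The windows at the other 2 CTCF strings, outside this run, read lower in TCKO as given above, so the stretch upstream of H19 had no single direction.

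Meg3, a maternally expressed non-coding RNA, held the other 2. Meg3 a (chr12:109541401-109542200), over a transcript start, read 37.7% of 268 and 60.4% of 225 (adjusted p = 2.67e-06, Fisher exact test), but TCKO had no call on the minus strand there, and its plus-strand level alone was 34.3% in WT and 60.4% in TCKO. Meg3 b (chr12:109555601-109556200), in the gene 6346 bp from the nearest start, read 47.8% of 180 and 83.3% of 132 (adjusted p = 7.87e-10, same exact test), the largest rise of the 24. Of the other 20 runs, 1 was called higher, that of Plagl1. Gnas a, also at a paternally methylated promoter, differed by -1.73 points, and the run upstream of Rasgrf1 and those beyond Meg3, given below, by 4.09, 2.04 and 8.27, so runs of loci with paternal methylation did not share a rise. No run chosen by the WT level lay between Dlk1 and Meg3, also with windows of 50 kb. The runs in and beyond Meg3 therefore do not give the state of the control region between these 2 genes. A run chosen instead by the TCKO level, as described below, lay just upstream of Meg3 (chr12:109540201-109541000). It read 64.8% of 193 calls in WT and 47.1% of 155 in TCKO, and whether it covers part of the control region was not examined. Within 500 bp of the start of Meg3-201 the level was 46.4% of 274 and 37.9% of 153. Meg3 and its upstream stretch thus had no single direction. The remaining run, 2450 bp upstream of Cdkn1c, the gene of the cell cycle inhibitor p57, read 64.2% of 148 and 72.3% of 206.

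**Figure D3:**
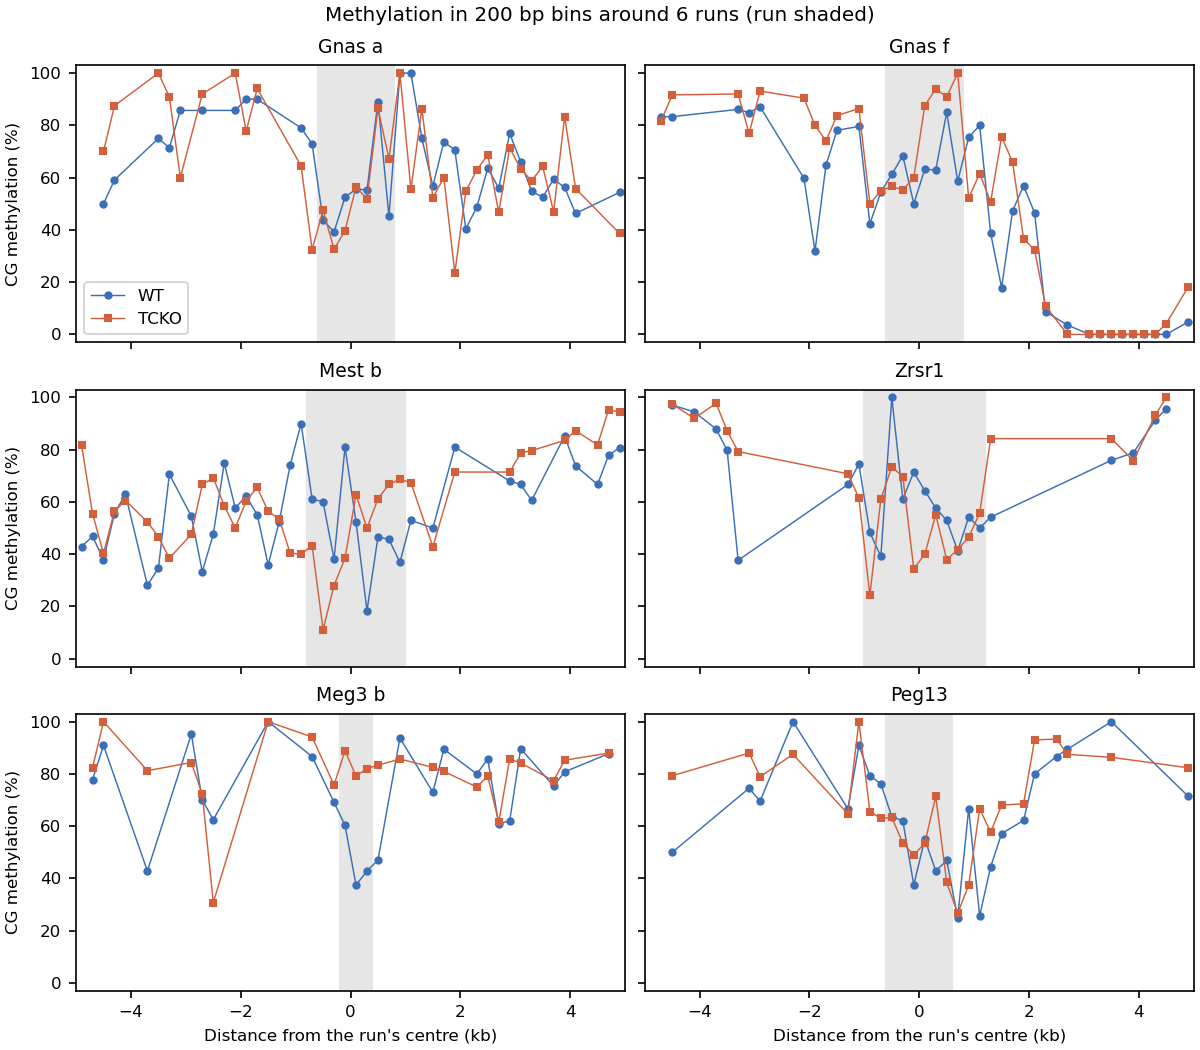
CG methylation (percent) in 200 bp bins with 4 or more covered cytosines in both libraries, by distance from the centre of a run (kb), for the 5 runs of 5 or more bins and for Meg3 b; WT in blue, TCKO in red, the run shaded. Around Zrsr1 and Peg13 both libraries dipped in the run from flanks with medians of 71.4 to 85.7%, whereas at Meg3 b the dip in WT (median 42.9% in the run) was absent in TCKO (82.1%). The WT level chose the runs, and Meg3 b was shown for having the largest difference. Gnas a and Mest b also had lower medians in the run than in the flanks in both libraries. Gnas f had higher ones, 63.0% against 44.4% in WT and 87.5% against 51.4% in TCKO.

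The 2 strands of a run were read apart, because the reads of a bisulfite library come from 1 strand each. Among the 19 member runs with 20 or more calls on each strand in both libraries, the plus and minus strands differed by a median of 10.8 points in WT and 12.02 in TCKO, and among 2277 autosomal runs by 8.15 and 7.64. At Impact the plus strand rose from 44.8 to 72.1% and the minus strand fell from 54.1 to 16%. At Usp29 the minus strand rose from 43.8 to 67.0% while the plus strand went from 51.0 to 45.9%. Single runs thus held strand gaps as large as the differences between libraries, and a pooled level at these depths rests on few independent reads.

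No run was found at 17 members: H13, Mcts2, Sgce, Peg10, Zim1, Ndn, Magel2, Mkrn3, Inpp5f, Igf2, Ascl2, Slc22a18, Phlda2, Rasgrf1, Grb10, Dlk1 and Slc38a4. Each had at least 1 intermediate bin. For several, a start known to lie in a control region was read in WT above or near the upper edge of the range. Within 500 bp of the start of Peg10, a gene derived from a retrotransposon, it was 71.6% of 208 calls in WT and 74.2% of 252 in TCKO. At the start of Mcts2, a retrogene in an intron of H13, it was 69.2% of 477 and 53.2% of 406. At the inner start of Inpp5f, a phosphoinositide phosphatase gene, it was 64.2% of 399 and 61.1% of 265. A fixed WT range thus left out regions read close to its edge. It also left out starts read far above it. Within 500 bp of the starts of Grb10-209 and Grb10-207 the level was 90.1% of 737 and 90.5% of 733 calls in WT. In TCKO it was 87.4% of 775 and 91.3% of 698.

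When the runs were chosen instead by a TCKO level of 35 to 65%, 15 lay in the member windows, and 14 of them (93.3%) were at 35 to 65% in WT, beside 58.2% of 1129 autosomal runs chosen in the same way. Their median TCKO minus WT difference was -2.14 points, and 9 of the 15 were lower in TCKO. Among them were a run of the H13 and Mcts2 windows (chr2:152686601-152687800), 64.5% of 493 calls in WT and 50.9% of 411 in TCKO, and one at Sgce, the gene of epsilon-sarcoglycan (chr6:4746201-4747200), 60.7% of 178 and 59.2% of 157. The choice of the library that defined the runs thus moved their median difference, and the share that held an intermediate level was above the autosomal share under either choice.

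Some control regions lie farther than 5 kb from their genes. With windows of 50 kb, 6 more WT-chosen runs were found. The run 31507 bp from Rasgrf1, a guanine nucleotide exchange factor whose paternally methylated region lies upstream, read 52.1% of 238 calls in WT and 56.2% of 226 in TCKO (chr9:89878001-89878800). The run 10492 bp from Mkrn3, a gene of a makorin ring finger protein, read 44.5% of 299 and 44.2% of 249. Beyond Meg3, runs at 36574 and 41674 bp read 56.1% of 98 and 46.8% of 524 in WT and 58.2% of 98 and 55.0% of 398 in TCKO. These 4 stayed at 35 to 65%. The other 2, 19677 bp from Nnat and 34356 bp from Gnas, read 46.2% and 53.4% in WT and 90.6% and 76.2% in TCKO.

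Promoters were then compared as 1 kb on either side of the start of each gene, with all 35 covered by 87 to 901 calls. A total of 5 were called higher and 1 lower (adjusted p below 0.05 by the Fisher exact test over 34733 genes and more than 10 points), beside a background of 20.2% higher and 1.35% lower. The median difference was 3.16 points for the members and 4.05 for all genes. The 5 were Slc22a18, an organic cation transporter gene (63.6% to 85.1%), Mkrn3 (38.0% to 52.7%), Cdkn1c (18.1% to 30.5%), Grb10, an adaptor of insulin receptor signalling (15.8% to 26.3%), and Nap1l5 (67.3% to 77.6%), with adjusted p-values of 0.000238 to 0.0256. The promoter of Nnat was lower, at 64.6% of 740 calls in WT and 53.3% of 604 in TCKO (adjusted p = 0.000343, Fisher exact test). Within 500 bp of the start of Nnat-201, however, the level was 49.8% of 281 in WT and 50.2% of 257 in TCKO. Around the start of Nnat-203, farther into the gene, it was 64.5% of 442 and 45.4% of 403.

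Of the 35 promoters, 16 were at 35 to 65% in WT and 14 of these (87.5%) were so in TCKO, compared with 4825 of 8782 (54.9%) over all genes. For gene bodies the same count was 7 of 14 members (50%) and 5409 of 9860 genes (54.9%). The promoter windows of Peg3 and Usp29 overlap almost wholly, and both count among the 16 and the 14. A promoter window lies at the outer end of a gene, so it can miss other starts. Within 500 bp, the start shared by 13 Plagl1 transcripts read 72.5% in WT and 36.7% in TCKO, and that of Snrpn-201 73.5% and 57.0%. At Peg3 the promoter read 50.1% of 873 calls in WT and 51.3% of 559 in TCKO, and at Airn 57.6% of 257 and 55.9% of 304. The promoter of H19 read 56.6% of 357 and 57.5% of 275, although the run in its body rose. Rasgrf1 (1.28% and 2.34%), Ascl2, a transcription factor gene (10.2% and 12.05%), and Phlda2, a gene of a pleckstrin homology domain protein (12.7% and 12.8%), had promoters with low levels in both libraries.

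The promoters of other members spread widely. Igf2, the growth factor gene, read 64.2% of 109 calls in WT and 77.1% of 96 in TCKO, and Dlk1, a gene of a transmembrane protein related to Notch ligands, 21.4% of 126 and 13.2% of 227. Neither difference passed the test. Magel2, a MAGE family gene, read 27.8% of 526 and 37.7% of 528, just under 10 points, and Ndn, which encodes necdin, 63.2% and 59.7%. Zim1, a zinc finger gene, read 25.1% and 35.2%, and Kcnq1, a potassium channel gene, 34.9% and 39.6%. The 9 members listed as further genes of imprinted clusters were Zim1, Ndn, Magel2, Mkrn3, Ascl2, Cdkn1c, Slc22a18, Phlda2 and Slc38a4. They had 3 promoters called higher and a median difference of 9.93 points. Over all genes 20.2% of promoters were called higher, at a median difference of 4.05 points. Of the bodies of these 9 members 1 was called higher, at a median difference of 5.22 points, beside 18.8% and 5.94 points over all genes. A difference of this group from the other genes was not tested.

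Over gene bodies, 8 members were called higher and 2 lower by the same rule, beside 18.8% higher and 0.656% lower of 34449 genes, and the median difference was 6.58 points for the members and 5.94 for all genes. The 8 were Igf2r, which encodes the receptor that clears Igf2 (69.7% to 82.9%), Airn (69.0% to 81.1%), Grb10 (64.5% to 76.7%), Nap1l5 (64.0% to 76.1%), Slc38a4, an amino acid transporter gene (73.0% to 85.1%), H13, the signal peptide peptidase gene (59.6% to 71.0%), Usp29 (67.7% to 77.8%) and H19 (58.5% to 68.6%). Mcts2 was lower, at 66.7% of 360 calls in WT and 51.4% of 245 in TCKO (adjusted p = 0.000422, Fisher exact test), while its host gene H13 was higher. Nnat was lower as well, at 66.9% of 694 and 53.7% of 614 (adjusted p = 3.81e-06, same exact test). In total 28 of 35 bodies and 25 of 35 promoters had a higher level in TCKO. The bodies of Igf2r and Airn overlap in part, so their 2 calls share some cytosines.

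At Slc38a4, 9 of the 14 compared intermediate bins were called higher, beside 24.4% of autosomal intermediate bins, and it held no run. This was the largest count of any member, but the number of compared bins ran from 0 (Magel2, Phlda2) to 39 (Gnas). At Igf2r 0 of the 8 compared bins was called, although 6 of them were 12.5 to 43.3 points higher in TCKO, and its body rose by 13.2 points.

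**Figure D4:**
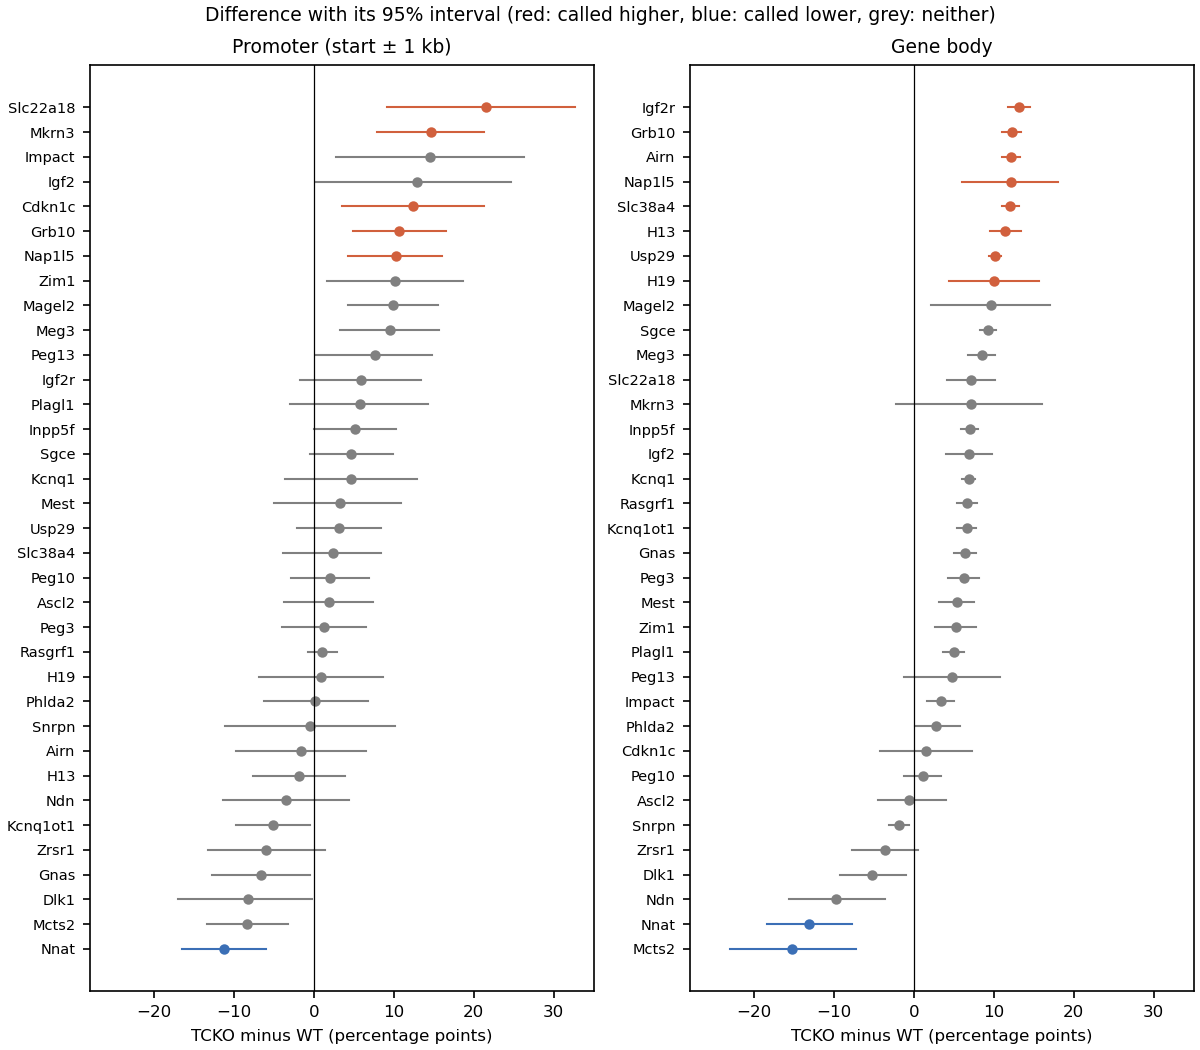
TCKO minus WT difference (percentage points) with its 95% Newcombe interval for the promoter (left) and the body (right) of the 35 imprinted genes, ordered by size; red marks genes called higher, blue genes called lower, grey neither. Promoters ranged from -11.3 to 21.5 points and bodies from -15.2 to 13.2.

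A list of 33 other imprinted genes was read with the same tables. It had 7 promoters called higher and 0 lower at a median difference of 3.38 points, and 6 bodies higher and 1 lower at 7.13 points, near the backgrounds of 20.2% and 18.8% higher given above. Among 9 genes known for setting or keeping imprints, 0 promoters were called higher and 1 lower. That promoter, of the de novo methyltransferase gene Dnmt3a, read 62.5% of 112 calls in WT and 35.9% of 142 in TCKO (adjusted p = 0.000292, Fisher exact test). The promoters of Dnmt1, the maintenance methyltransferase gene (80.7% and 81.7%), of Uhrf1, its partner (23.2% and 22.3%), of Zfp57 (84.8% and 85.6%) and of Ctcf (0.617% and 0.949%) differed by under 1 point. The other 4 differed by 9.41 points (Trim28), -4.35 (Dnmt3l), -3.52 (Zfp445) and 1.85 (Dppa3) and did not pass the test. These windows too lie at the outer end of each gene, and other starts of these 9 genes were not read.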

How the data were processed

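Per the labels and methods, WGBS was done on 1 WT and 1 TCKO library of primary osteoblasts. The authors aligned reads to GRCm38 (BSMAP 2.74 and CASAVA are named in the submitters' processing notes) and deposited, per CG cytosine and strand, counts of methylated calls and of all calls, without normalization. Removal of duplicate reads is not given in the sources used here. 5mC and 5hmC are both read as methylated. All covered positions lay on a CG of GRCm38.

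Levels were methylated over all calls, pooled per bin, run, promoter or gene body. Differences were tested by the Fisher exact test (2-sided), and p-values were adjusted after Benjamini and Hochberg over each whole-genome table. Intervals are 95% Wilson and, for differences, Newcombe. Genes and regions were named by rule: all members, all runs, and the 3 largest called rises and falls among bins; the fourth bin called lower, single transcript starts and runs beyond 5 kb were added after values were seen. The members and lists were chosen with earlier results of these data known. The code was tested on simulated data. Computations used Python 3.11.15, numpy 2.4.6, pandas 2.3.3, scipy 1.17.1, numba 0.67.0 and matplotlib 3.10.9.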

Additional observations from a re-analysis of the deposited data

How the results depend on the processing

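The 37.4% of member bins kept at 35 to 65% in TCKO became 31.6% with a mean of at least 4 calls per cytosine, 31.3% with the mean of single-cytosine levels, 52.1% when bins were chosen by the TCKO level (47.9% on the autosomes), 45.3% with 400 bp bins, and, among alternatives added after seeing the data, 53.8% in runs only and 30.5% outside runs. In each of the alternatives with an autosomal value under the same choice, the member share was the higher. The 55 bins called higher and 4 called lower of 270 became 15 and 3 of 82 with 12 or more cytosines, 32 and 1 of 98 with the depth minimum, 27 and 5 with 400 bp bins (fewer, larger bins), and 15 and 1 of 270 above 40 points. The 24 runs became 5 with at least 5 bins and, added after seeing the data, 15 when chosen by the TCKO level. The 5 promoters higher and 1 lower became 8 and 0 for the 2 kb upstream, 6 and 2 for 500 bp on either side, and 1 and 0 above 20 points. The 8 gene bodies higher and 2 lower became 8 and 0 without the first 2 kb, and 23 and 5 at any difference.

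The direction of a run reversed with the mean of single-cytosine levels at Gnas c (-4.24 points), Mest b (-0.421), Airn (-3.03) and Impact (-6.01), on the plus strand at Gnas b (-7.13), Usp29 (-5.05) and Snrpn (4.87), and on the minus strand at Gnas a (2.04), Mest a (-0.357), Mest b (-7.88), Cdkn1c (-2.60), Zrsr1 (6.53), Peg13 (-11.3) and Impact (-38.1). The cause was not tested. The calls of H19 a (18.97 points with the mean of single-cytosine levels, 18.7 on the minus strand) and Plagl1 (17.7 with that mean, 10.7 on the plus strand) fell below the threshold, and Kcnq1ot1 passed it as lower with that mean (-30.4) and on the minus strand (-45.1). Further runs passed it on 1 strand: Nnat (-54.2), Gnas b (22.6) and Usp29 (23.2) on the minus strand, and Peg13 (20.1) and Impact (27.4) on the plus strand, while Impact was called lower on the minus strand. With the mean of single-cytosine levels, differences that kept their direction and grew by over 1.5 times without a call were those of Nnat (-34.5), Gnas d (-10.5), Gnas f (12.3), Gnas g (15.4), Nap1l5 (17.5) and Usp29 (12.3). Leaving out cytosines deeper than 50 calls changed no call or direction of the 24 runs, but the adjusted p of Zrsr1 rose to 0.0653 (Fisher exact test). No paired analysis was possible because each genotype had 1 library, and leaving out a replicate was not possible for the same reason. Calls on 1 read share their allele, so at imprinted regions the number of independent observations is smaller than the number of calls, and intervals are too narrow by an amount that was not estimated.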
